A study of Gallus gallus with 6 samples.

Results

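The genes described here encode mitochondrial ribosomal proteins. Membership was set by name: every Ensembl gene, present in all 6 tables, whose name starts with MRPL or MRPS. There were 61 of them among 24881 Ensembl genes, 39 MRPL and 22 MRPS. The members and the tests were chosen with earlier results of these data known. The 61 genes were compared in 3 libraries of proliferating chicken embryo skeletal muscle myoblasts and 3 libraries of myotubes differentiated from such cells. The value columns of the myoblast tables are headed PM where the sample titles say GM, and those tables were taken as myoblast because each was deposited under a myoblast sample. Myoblasts were kept in RPMI-1640 with 15% fetal bovine serum, and myotubes were induced in the same base medium with 2% horse serum. Both groups were primary cells at passage 1, with penicillin and streptomycin in the medium, and the labels give no strain, sex, embryo age or time in differentiation medium. Nothing in the labels ties the replicates to different dishes or animals. The p-values therefore measure the spread between the 3 libraries of a group, which may be technical.

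The mitochondrial ribosome sits inside the mitochondrion and translates the few messenger RNAs of the mitochondrial genome, all of them for subunits of the respiratory chain and ATP synthase. Its RNAs are made in the mitochondrion, whereas its proteins are encoded in the nucleus, translated in the cytosol and imported. The large subunit joins amino acids and the small subunit reads the messenger RNA. Some of the proteins have counterparts in the bacterial ribosome, and others exist only in mitochondria. Placements within the ribosome given below come from structures of mammalian mitochondrial ribosomes.

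Total counts ran from 16052542 to 20981337 in myoblast libraries and from 21893152 to 23519295 in myotube libraries. Markers of muscle moved with the labels: MYF5 and MYOD1, markers of myoblasts, were lower in myotubes, and 5 of 5 genes of differentiating muscle (MYOG, MYL1, TNNT3, MYOM2 and ACTN2) were higher. Other markers also moved. Of 4 proliferation markers (CDK1, UBE2C, TOP2A and CCNB2) 4 fell, with summed levels of 933 to 975 CPM (reads per gene on a common, TMM-scaled library size) in myoblasts and 146 to 161 CPM in myotubes. Of 6 matched macrophage and blood markers 5 fell, and the sum of the 6 went from 738 to 781 CPM down to 178 to 191 CPM, with none at 0. The fall was uneven, with log2 fold changes of -2.81 for C1QA, -3.16 for C1QB and -3.09 for C1QC. CSF1R had -0.90 and PTPRC -0.46, and CD74 was not called, at -0.03. The 6 matched fibroblast markers all rose, from 4766 to 4887 CPM in sum up to 10592 to 12315 CPM. The part of these shifts in the results below was not tested. In such bulk samples, fewer cells of a type and less RNA per cell cannot be told apart.

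Messages for the mitochondrial ribosome were lower in myotubes almost throughout. One gene, MRPL54, had too few reads to test, and 57 of the other 60 fell in edgeR's quasi-likelihood test at an adjusted p under 0.05. None rose, although MRPL40 and MRPS12 were called higher when the libraries were quantile-normalized. The background was 35.7% of all 12808 tested genes called lower and 36.7% called higher, 72.5% in either direction. The median log2 fold change of the 60 genes was -0.58, beside 0.01 over all tested genes, and the range was -1.42 to -0.08. A fall of at least 1.5-fold was called in 30 genes (background 21.2%) and one of at least 2-fold in 6 (background 11.1%). The 3 myotube libraries lay wholly below the 3 myoblast libraries in 57 of the 60 genes (background 37.5% in that direction and 76.1% in either). None of the 60 reached an unadjusted p under 0.05 in the upward direction in edgeR or in DESeq2. In edgeR that follows from the signs, since all 60 fitted log2 fold changes were below 0. Of the 61 listed positions 12 overlap another gene, whose reads may be shared, and among the 49 others 46 fell, with a median of -0.56.

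**Figure D1:**
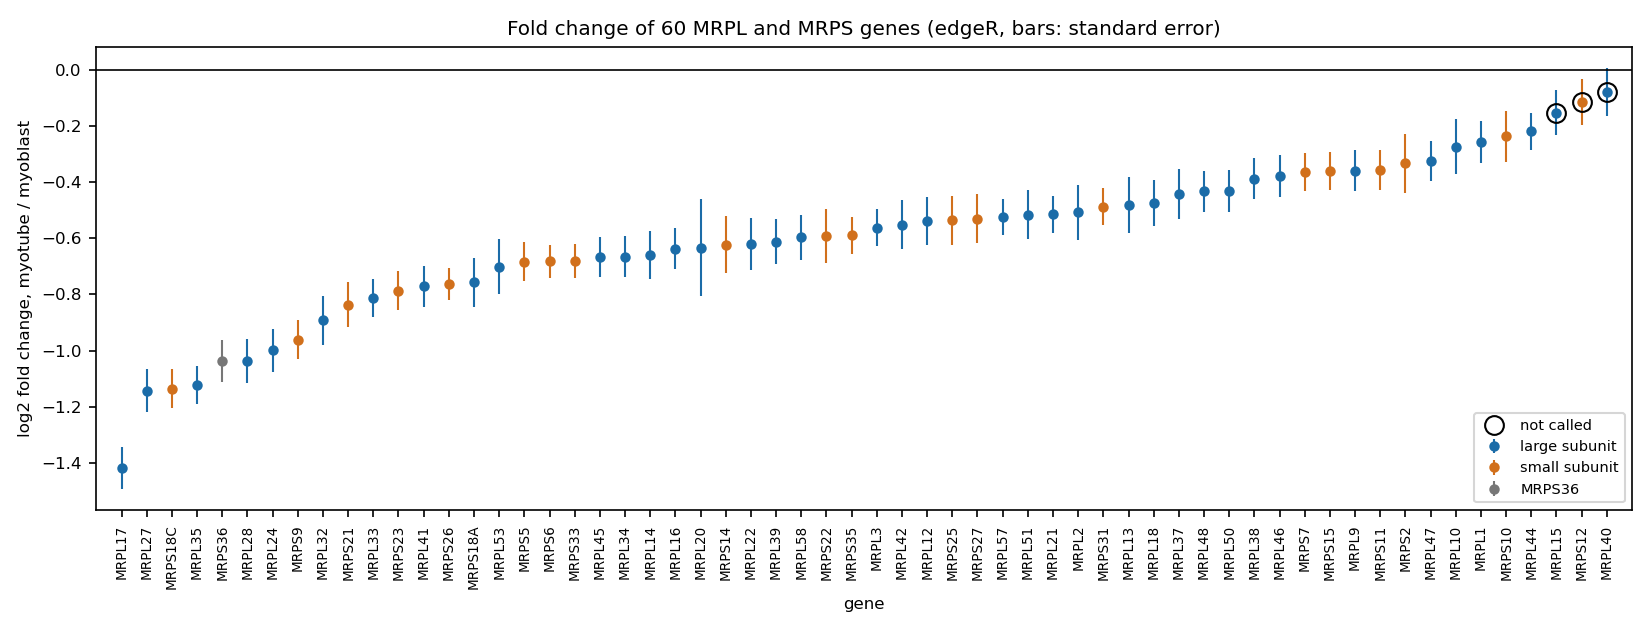
Fitted log2 fold change, myotube over myoblast, on the vertical axis for each of the 60 tested genes on the horizontal axis, with standard errors as bars, coloured by ribosomal subunit. All 60 points lie below 0, and the 3 circled genes were not called; by quantile normalization MRPL40 and MRPS12 were called higher.

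The size of the fall depended on the scale. When FPKM (fragments per length of gene and size of library) was rescaled to sum to the same total in every library, the median of all genes moved to 0.19, and 51 of 60 genes were called lower with a median of -0.38. On that scale 3492 of all tested genes were called lower and 5865 higher, beside 4577 and 4706 in the count test. Relative to the median of all genes, the family stood at -0.59 in the count test, at -0.57 on that scale and at -0.38 by quantile normalization. These genes are also shorter and more highly expressed than most. Among the 4818 other tested genes within the family's range of length and level, 46.4% were called lower and 28.6% higher, with a median of -0.15. These genes were not matched in level: their median FPKM in myoblasts was 27.4, beside 60.1 for the family. On the rescaled FPKM 1719 of the 4818 were lower and 1854 higher. Across the 60 genes Pearson's r was 0.06 with log2 length and -0.10 with log2 FPKM, a description over genes that share libraries.

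Levels spanned a wide range, in much the same order in both groups. Mean FPKM went from 10.1 for MRPL20 to 309.9 for MRPL12 in myoblasts, and from 6.75 to 223 for the same genes in myotubes. In myoblasts 59 of the 60 genes were above the median FPKM of all tested genes (12.8), and in myotubes 57 were above it (14.4). The log2 levels of the 60 genes in the 2 groups correlated with a Pearson's r of 0.96, a description over genes. MRPL12 was the most abundant message per length in both groups. MRPL17 went from second place in myoblasts to the sixth in myotubes, and MRPL40 from the sixth to second.

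**Figure D2:**
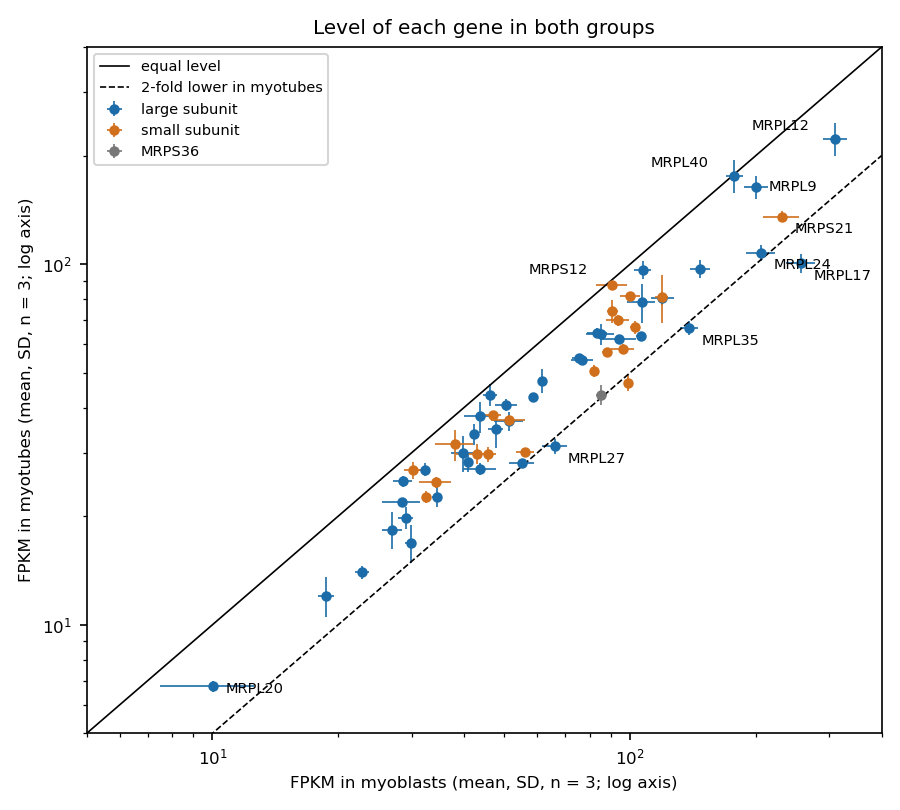
Mean FPKM of each tested gene in myoblasts (horizontal) and myotubes (vertical), both on log axes, with SD over 3 libraries as bars. Most points lie between the line of equal level and the line of a 2-fold fall; MRPL17, MRPL27, MRPS18C and MRPL35 lie under the latter, and MRPL40 and MRPS12 lie near equality, where their direction turned with the scaling.

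The largest fall was that of MRPL17, a protein at the exit of the tunnel through which the new chain leaves the large subunit. The gene lies on chromosome Z (9297783 to 9298741, minus strand). Its level was 195, 226 and 230.3 CPM in the 3 myoblast libraries and 80.1, 86.3 and 77.6 CPM in the 3 myotube libraries. The groups were far apart, at a log2 fold change of -1.42 (SE 0.07), a 2.67-fold fall (edgeR adjusted p = 8.4e-08). MRPL24, another exit protein, went from 149, 171 and 175 to 87.4, 83.0 and 77.3 CPM. Its groups did not overlap, and its log2 fold change of -0.9996 (SE 0.08) fell just short of a 2-fold change. MRPL22, which lines the tunnel, fell 1.54-fold, from 43.4 ± 2.65 to 28.3 ± 3.07 CPM (SD, n = 3 in each group). MRPL45, which in human cells holds the ribosome to the inner membrane, fell 1.59-fold to 44.8 ± 2.50 CPM. MRPL44, an RNase III fold protein beside the exit, fell little, 1.16-fold, from 104, 114 and 114 CPM to 96.8, 99.7 and 88.8 CPM. Its adjusted p of 0.012 rose to 0.063 without myoblast replicate 2, and on the rescaled FPKM its log2 fold change was -0.033. By quantile normalization the sign of MRPL44 turned, to 0.067. All 7 genes placed at the exit fell in the count test (background 35.7% called lower), with a median log2 fold change of -0.62.

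At the factor-binding stalk, which recruits the elongation factors, MRPL12, MRPL10 and MRPL53 fell. MRPL12, which in human mitochondria also binds the RNA polymerase, went from 167, 179.9 and 195 CPM in myoblasts to 130.1, 134 and 109 CPM in myotubes. That is a log2 fold change of -0.54 (SE 0.09, edgeR adjusted p = 0.00025), with no overlap between groups, and it was not called by quantile normalization, at -0.12. MRPL10, which anchors the MRPL12 copies, changed less, from 49.98, 53.7 and 60.4 to 46.3, 49.2 and 40.4 CPM. Its groups stood close together, at -0.27 (SE 0.10, edgeR adjusted p = 0.028). That call was lost without myoblast replicate 2 (adjusted p = 0.054), without myoblast replicate 3 (0.11) and without myotube replicate 3 (0.090), and with the replicate number as a block (0.059). It was also lost with library totals (0.066), with a stricter filter of a mean FPKM of at least 5 (0.059) and in every fit on FPKM. Reads of MRPL10 are also uncertain, because its listed position overlaps NFE2L1 on the opposite strand. MRPL54 belongs to the same stalk and had between 3 and 8 counts in each library, too few for a change to be detectable. Its reads are uncertain as well, because an unnamed gene overlaps its listed position on the same strand.

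Around the peptidyl transferase centre, where peptide bonds form, MRPL3, MRPL2 and MRPL16 all fell. MRPL3 went from 97.1, 110.3 and 107 to 71.0, 72.8 and 69.3 CPM, 1.48-fold lower (edgeR adjusted p = 2.5e-05). MRPL27, whose bacterial counterpart reaches into that centre, was among the strongest falls. It went from 78.9, 90.3 and 89.9 CPM to 37.5, 40.2 and 39.6 CPM, a log2 fold change of -1.14 (SE 0.08, edgeR adjusted p = 4.6e-07), and an unnamed gene overlaps it on the opposite strand. MRPL35 and MRPL28, other large subunit proteins with bacterial counterparts, also fell at least 2-fold. MRPL35 was at 102, 112 and 113 CPM in myoblasts and 50.3, 52.1 and 48.0 CPM in myotubes (log2 fold change -1.12, SE 0.07). MRPL28 was at 57.8, 65.8 and 67.1 CPM and 31.7, 31.0 and 30.3 CPM (log2 fold change -1.04, SE 0.08), and it overlaps TMEM8A on the same strand. In both, every myotube library was under every myoblast library. MRPL9, the fifth most abundant message per length in myoblasts, fell only 1.28-fold in the count test, and by quantile normalization it showed no fall. Its FPKM went from 201 ± 13.1 to 164 ± 12.2.

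The central protuberance, where the large subunit faces the head of the small one, held 6 tested genes with a median of -0.41. MRPL27 was the only one of them called at least 1.5-fold lower. That is 16.7%, near the 21.2% of all tested genes. MRPL38 fell 1.31-fold, from 61.9 ± 1.19 to 47.3 ± 2.93 CPM (edgeR adjusted p = 0.00074). MRPL40 (chromosome 15, 662328 to 663927) did not pass the test: it stood at 87.6, 96.2 and 96.8 CPM in myoblasts and 100.3, 84.3 and 81.3 CPM in myotubes. The groups overlapped, since myotube replicate 1 was above every myoblast library. Its log2 fold change was -0.08 (SE 0.08, edgeR adjusted p = 0.43); without myotube replicate 1 it was -0.18 (adjusted p = 0.037), and by quantile normalization it was 0.27 (limma adjusted p = 0.0089). MRPL15, a core protein of the large subunit, gave 52.4, 57.0 and 56.3 and 54.3, 46.7 and 48.0 CPM and likewise overlapped, with myotube replicate 1 again the highest of its group. Its log2 fold change of -0.15 (SE 0.08, edgeR adjusted p = 0.11) passed the test without that library, at -0.23 (adjusted p = 0.022).

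In the small subunit the strongest fall was that of MRPS18C, one of the vertebrate forms of the bacterial S18 protein. Its gene is on chromosome 4 (46782467 to 46784634). It stood at 54.0, 53.8 and 53.4 CPM in myoblasts, with hardly any spread, and at 25.4, 22.9 and 25.1 CPM in myotubes. The log2 fold change was -1.14 (SE 0.07, edgeR adjusted p = 2.7e-07), although an unnamed gene overlaps it on the opposite strand. MRPS9, in the head of the subunit, followed at 73.8, 68.8 and 76.4 CPM against 38.0, 37.0 and 37.4 CPM. Its groups were separate and its log2 fold change was -0.96 (SE 0.07). MRPS21, a protein near the messenger RNA exit and the most abundant small subunit message per length, fell 1.79-fold in the count test. Its FPKM went from 231 ± 22.9 to 135 ± 4.95, and it overlaps PRPF3 on the same strand. MRPS5, at the messenger RNA entry, fell 1.61-fold to 47.5 ± 2.26 CPM. MRPS22 and the RNA-binding protein MRPS27, both mitochondria-specific, fell 1.51-fold and 1.44-fold. MRPS7, which organizes the head, fell 1.29-fold to 53.4 ± 1.47 CPM, and MIF4GD overlaps it on the opposite strand. The 7 MRPS-named genes placed in the head fell in the count test (background 35.7% called lower), with a median of -0.59. Of these the call for MRPS10 depended on the fit, and DAP3, a head protein under another name, was not called lower.

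MRPS12, a protein of the decoding centre where codon and anticodon meet, was the exception among the 20 tested MRPS-named genes of the small subunit. Its level was 43.3, 49.5 and 52.6 CPM in myoblasts and 44.7, 45.3 and 44.5 CPM in myotubes. The myotube values were close together and fell within the spread of the myoblast libraries. The log2 fold change of -0.11 (SE 0.08, edgeR adjusted p = 0.23) passed no test of decrease in any of the 18 fits, and by quantile normalization the gene was called higher, at 0.17 (limma adjusted p = 0.038).

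Names and subunits do not always match. MRPS18A, an S-named protein that sits in the large subunit, fell 1.69-fold, from 54.2, 55.9 and 65.2 to 36.5, 34.3 and 33.1 CPM. Its groups were apart (edgeR adjusted p = 2.4e-05). MRPS36 keeps a ribosomal name but is now known as a component of the 2-oxoglutarate dehydrogenase complex of the citrate cycle. It was also among the strongest falls, from 43.3, 46.2 and 44.6 to 20.5, 22.8 and 22.1 CPM, a log2 fold change of -1.04 (SE 0.07, edgeR adjusted p = 7.8e-07).

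The rest of the family lay between these extremes. MRPL32, which in mouse mitochondria must be cut by the m-AAA protease before it joins the ribosome, fell 1.86-fold from 49.7, 52.9 and 51.0 to 24.8, 30.8 and 27.1 CPM. MRPL58, a peptidyl-tRNA hydrolase that in human mitochondria rescues stalled ribosomes, fell 1.51-fold from 31.0, 31.3 and 31.5 to 22.0, 20.8 and 19.2 CPM. In both the groups were apart. Other large subunit genes called at least 1.5-fold lower were MRPL33, MRPL41, MRPL53, MRPL34, MRPL14, MRPL16, MRPL20 and MRPL39, in order of their fold, from 1.76 down to 1.53. In the small subunit they were MRPS23, MRPS26, MRPS6, MRPS33, MRPS14 and MRPS35, from 1.73 down to 1.504. MRPS6, counterpart of bacterial S6, was the highest of these in reads, at 197, 209 and 212 CPM in myoblasts and 132, 121 and 131 CPM in myotubes. MRPL33 overlaps RBKS on the opposite strand, and MRPL20 overlaps CCNL2 on the same strand. MRPL20, the lowest tested member, stood at 8.31, 12.3 and 8.01 CPM in myoblasts and 5.99, 6.11 and 6.31 CPM in myotubes (SE 0.17). Smaller falls were called for MRPL42, MRPL57, MRPL51, MRPL21, MRPL2, MRPL13, MRPL18, MRPL37, MRPL48, MRPL50, MRPL47 and MRPL1, from 1.47-fold to 1.19-fold. The same held for MRPS25, MRPS31, MRPS15, MRPS2 and MRPS10, from 1.45-fold to 1.18-fold. MRPL13 overlaps MTBP on the opposite strand. MRPS15 overlaps CSF3R on the same strand and an unnamed gene on the opposite one. MRPS10, which overlaps an unnamed gene on the same strand, stood at 22.0, 22.4 and 24.6 CPM and 20.7, 18.2 and 19.6 CPM (edgeR adjusted p = 0.039) and MRPS2 at 40.3, 39.98 and 48.9 and 38.2, 33.8 and 30.7 CPM (adjusted p = 0.016), each had groups that did not overlap. Without myoblast replicate 3 the adjusted p was 0.14 for MRPS10 and 0.079 for MRPS2, and without myotube replicate 3 it was 0.067 and 0.054. That of MRPS10 was also 0.061 without myoblast replicate 2 and 0.13 without myotube replicate 2. The call for MRPS10 held in 8 of 18 fits: among others it was lost in DESeq2 (adjusted p = 0.053), with library totals (0.096), with the stricter filter (0.078) and with the replicate number as a block (0.078).

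The subunits went down by like amounts. Of 39 tested genes of the large subunit 37 fell, with a median of -0.55, and of 20 of the small subunit 19 fell, with a median of -0.59. Over all tested genes 35.7% were called lower, with a median of 0.01. Large subunit messages made up 0.431% ± 0.016 of all FPKM in the myoblast libraries and 0.323% ± 0.012 in the myotube libraries (SD, n = 3). Small subunit messages made up 0.212% ± 0.0056 and 0.159% ± 0.0019. The groups did not overlap for either subunit. The ratio of the sums, large over small, was 2.01, 2.03 and 2.06 in myoblasts and 2.08, 2.07 and 1.96 in myotubes. The means were 2.04 ± 0.028 and 2.04 ± 0.065, so the ratio differed by less than the spread between libraries. Genes with a bacterial counterpart had a median of -0.62, with 33 of 35 lower, and mitochondria-specific genes one of -0.54, with 23 of 24 lower. By quantile normalization that order turned, at -0.36 and -0.42. In the count test 5 of the 35 genes with a bacterial counterpart (14.3%) were called at least 2-fold lower, beside 11.1% of all tested genes. Of the 24 mitochondria-specific genes 0 were. Of those 5, MRPL17 alone kept a 2-fold fall on the rescaled FPKM, at -1.22, while MRPL27 was at -0.94 and MRPL28 at -0.83.

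**Figure D3:**
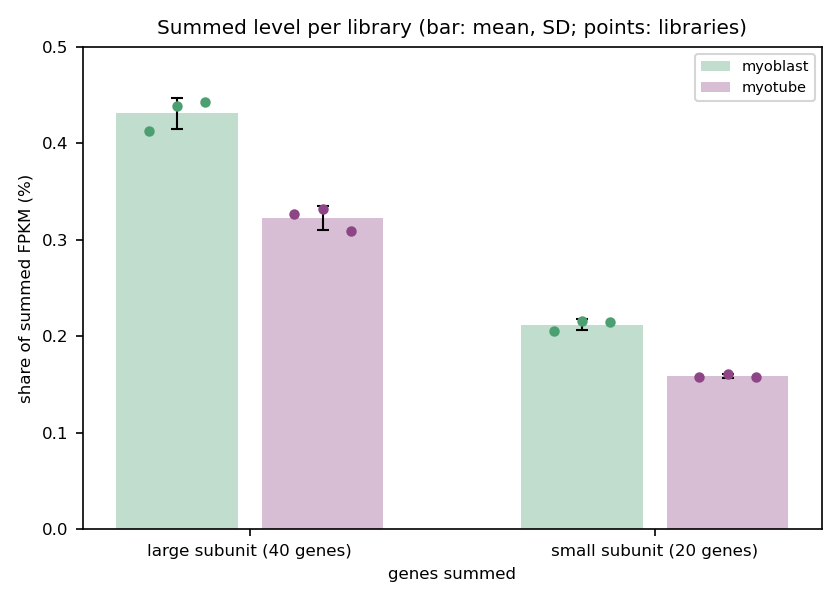
Share of summed FPKM, in percent, held by the 40 large subunit and 20 small subunit genes, with 1 point per library, bars at the mean and SD over 3 libraries. Myotube libraries lie under myoblast libraries for both subunits, and the large subunit's share stays about 2.04 times that of the small one.

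Other genes of mitochondrial translation were called in both directions, beside a background of 35.7% of all tested genes called lower and 36.7% higher. Of 3 tested ribosomal proteins with other names, AURKAIP1 fell 1.43-fold and CHCHD1 1.44-fold, both of the small subunit. DAP3, a GTP-binding protein of the small subunit head, stood at 68.5, 70.5 and 76.8 CPM in myoblasts and 81.1, 79.8 and 71.8 CPM in myotubes. Its groups overlapped, with a log2 fold change of 0.11 (SE 0.07, edgeR adjusted p = 0.21), and it was called higher in every fit on FPKM. Among 23 tested assembly and rRNA modification genes, the median was -0.21. In all, 11 of them fell and 2 rose in the count test, 4 rose without myotube replicate 1, and on the rescaled FPKM 6 fell and 6 rose. NSUN4, which methylates the small subunit rRNA and takes part in assembly, fell 2.49-fold, from 34.1 ± 2.37 to 13.7 ± 1.54 CPM (edgeR adjusted p = 1.6e-06). GTPBP6, a GTPase of ribosome splitting, rose 1.49-fold to 11.2 ± 0.613 CPM.

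Of 14 tested translation factors and mRNA stability genes, 3 were lower and 3 higher around a median of -0.03 (2 and 6 on the rescaled FPKM, 2 and 4 with library totals, 3 and 2 in DESeq2). SLIRP, a partner of LRPPRC in keeping mitochondrial messages stable, fell 1.63-fold, from 74.8 ± 4.24 to 45.9 ± 1.48 CPM. The release factor gene MTRF1 rose 1.40-fold to 22.8 ± 2.62 CPM, and GFM1, the elongation factor G, was at 33.9, 37.4 and 37.3 CPM in myoblasts and 34.0, 34.0 and 37.0 CPM in myotubes (edgeR adjusted p = 0.57). Of 13 mitochondrial tRNA synthetases, 2 were lower and 2 higher around a median of 0.04 (1 and 5 on the rescaled FPKM, 1 and 3 with library totals, 2 and 1 in DESeq2, with median-of-ratios scaling and by quantile normalization, 0 and 2 with the stricter filter, and 1 to 2 lower and 1 to 3 higher with single libraries left out). EARS2, the glutamate enzyme, fell 1.82-fold and FARS2, the phenylalanine enzyme, rose 1.30-fold. These lists were not tested against the ribosomal proteins, and over all tested genes 35.7% were called lower and 36.7% higher. For the 25 tested NDUF genes, subunits of respiratory complex I and so partners of the proteins that this ribosome makes, 23 fell with a median of -0.47, and by quantile normalization 12 fell and 1 rose. The 61 tested cytosolic ribosomal protein genes gave 17 lower and 9 higher with a median of -0.05, but 6 and 27 on the rescaled FPKM, 14 and 13 with library totals and 13 and 20 by quantile normalization.

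**Figure D4:**
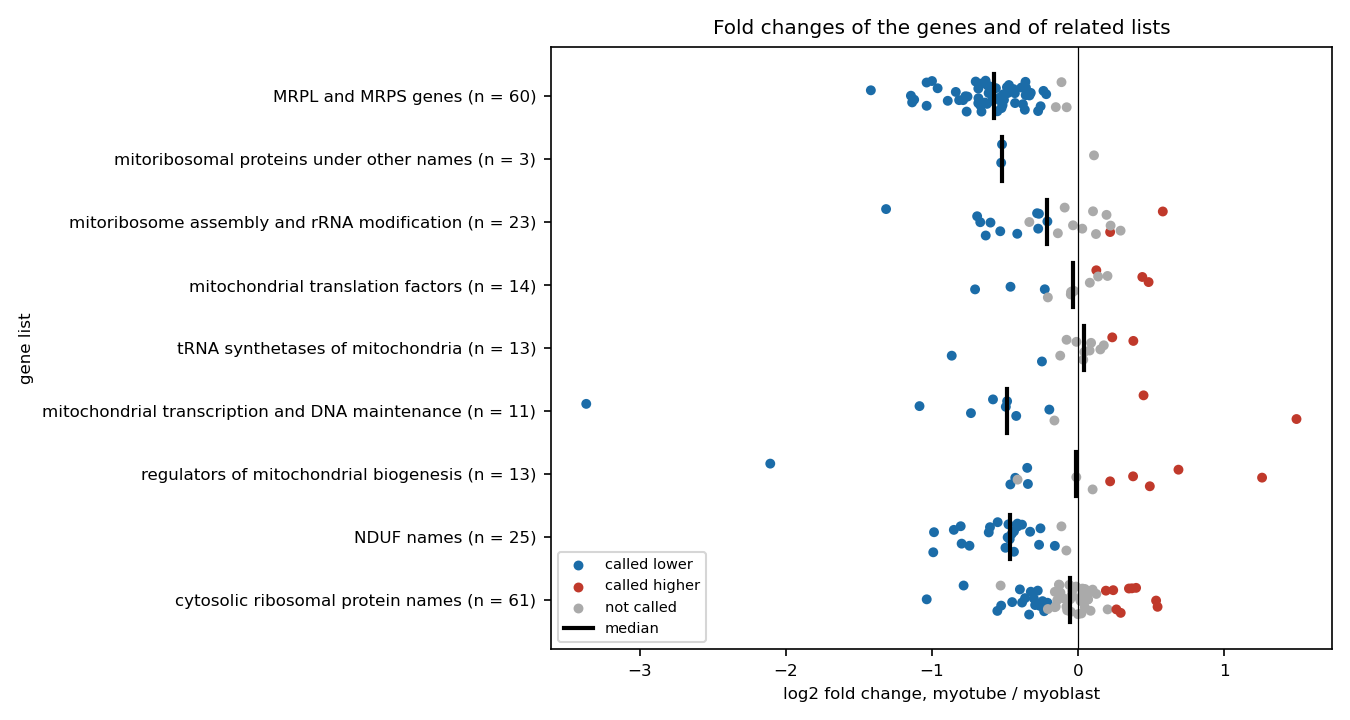
Fitted log2 fold change, myotube over myoblast, of each tested gene (1 point per gene, spread vertically for legibility) in the family and in related lists, coloured by the call, with the list's median as a bar. In the count test shown, 57 of 60 family members were called lower and none higher, but quantile normalization called MRPL40 and MRPS12 higher. The lists of translation factors, tRNA synthetases and cytosolic ribosomal proteins hold calls on both sides, and which side was larger in them turned with the scaling.

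Genes that maintain or transcribe mitochondrial DNA or process its RNA were lower in 8 and higher in 2 of 11 cases, with a median of -0.49. The background was 35.7% of all tested genes called lower and 36.7% called higher. DNA2, a nuclease and helicase that also serves nuclear DNA replication, fell 10.3-fold, from 29.1 ± 0.0988 to 2.82 ± 0.595 CPM. TFAM, which packages mitochondrial DNA, fell 1.34-fold from 82.8, 85.1 and 88.8 to 69.1, 62.3 and 59.9 CPM (edgeR adjusted p = 0.00038). POLRMT, the mitochondrial RNA polymerase, had a log2 fold change of -0.16 (SE 0.08, edgeR adjusted p = 0.083). The topoisomerase TOP1MT rose 2.82-fold to 109 ± 8.97 CPM. Among regulators of mitochondrial gene expression, 5 rose and 5 fell of 13 (6 and 2 on the rescaled FPKM). That is 38.5% each way in the count test, near the 36.7% higher and 35.7% lower of all tested genes. GABPA, a factor known in mammals to act at promoters of mitochondrial protein genes, rose 1.16-fold, from 146, 144 and 141 to 167, 162 and 172 CPM. MYC, a growth regulator, rose 1.61-fold, from 89.3, 97.1 and 100.4 to 176, 147 and 139 CPM (edgeR adjusted p = 5.3e-05). Whether either bears on the ribosomal genes was not tested. ESRRG, an orphan nuclear receptor of oxidative tissue, rose 2.39-fold to 8.71 ± 0.699 CPM, and E2F1, a cell cycle factor, fell 4.30-fold to 32.9 ± 2.07 CPM.

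The genes are scattered over 22 chromosomes and 1 unplaced scaffold, with at most 10 on one (chromosome 1), in a genome build not given in the sources used here. Positions were searched for a head-to-head arrangement, in which a gene on the opposite strand starts within 1000 bases upstream. This held for 18 of 61 genes, 29.5%, beside 8.54% of all Ensembl genes in the tables, and for 17 of the 60 tested genes (28.3%) beside 12.6% of all tested genes. In a single case both partners were in the family: MRPS11 and MRPL46 lie on chromosome 10 (13171108 to 13174638 on the minus strand and 13174658 to 13177215 on the plus strand), with 20 bases between their starts. MRPS11 went from 76.6, 81.4 and 78.7 to 63.1, 65.1 and 56.6 CPM, and MRPL46 from 49.8, 48.2 and 55.2 to 39.4, 40.6 and 38.0 CPM. In the count test both fell by nearly the same amount, at log2 fold changes of -0.36 and -0.38 (SE 0.07 and 0.08). By quantile normalization MRPS11 was not called, at -0.10 (limma adjusted p = 0.15), while MRPL46 was called lower in all 18 fits.

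Of the other 16 neighbours 15 were tested, and 7 fell, 3 rose and 5 were not called, with a median log2 fold change of -0.19. The background over all tested genes was 35.7% called lower and 36.7% called higher. Some neighbours belong to cell division or DNA repair. SKA3, a kinetochore gene 69 bases from the start of MRPL57, went from 44.4, 40.2 and 42.3 to 5.30, 5.55 and 4.54 CPM. That is a log2 fold change of -3.04 (edgeR adjusted p = 5.2e-09), whereas MRPL57 on the other side fell by 0.52. NCAPD2, a condensin gene 108 bases from MRPL51, had -1.07, beside -0.52 for MRPL51. EME1, a DNA repair nuclease gene 136 bases from MRPL27, had -1.62, beside -1.14 for MRPL27. Others are mitochondrial themselves. IMMT, an organizer of the cristae, paired with MRPL35 and had -0.69, and NDUFB5, a complex I subunit, paired with MRPL47 and had -0.60. PTCD2, also mitochondrial and 22 bases from MRPS27, was not called, at -0.09 (edgeR adjusted p = 0.45). TCP1, a subunit of the cytosolic chaperonin, had -0.79 beside MRPL18. IGHMBP2, PNPLA7 and an unnamed gene rose while their family partners MRPL21, MRPL41 and MRPL37 fell. Members with such a neighbour had a median of -0.51 and those without one -0.61.

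**Figure D5:**
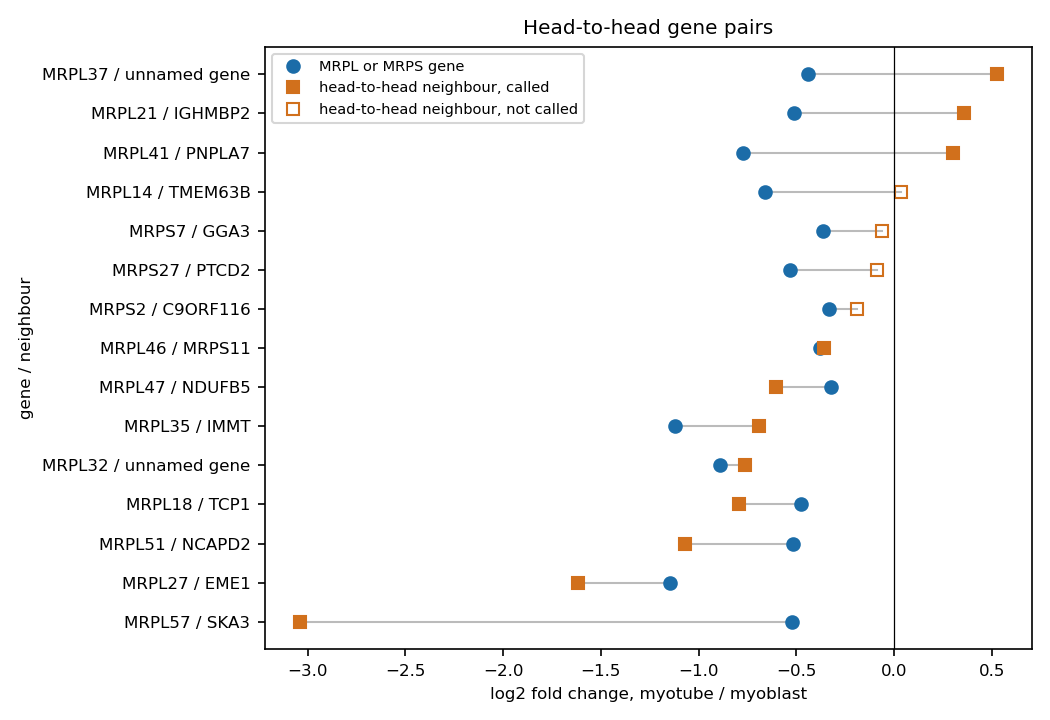
Fitted log2 fold change, myotube over myoblast, of the family member (circles) and of its head-to-head neighbour (squares, open where not called) for the 15 pairs in which both were tested, sorted by the neighbour. Circles stay between -1.14 and -0.32 in the count test, while neighbours run from -3.04 to 0.53.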

How the data were processed

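RNA was extracted with Trizol and sequenced from Illumina libraries, per the labels' protocols. Per the file headers, the authors deposited raw counts and FPKM for each gene in each library. HISAT and HTSeq are named in the submitters' processing notes, without versions. Build, strandedness and the handling of multimapping reads: not given in the sources used here. The deposited FPKM matched the listed length within 1% for 32 of the 60 tested members and implied a shorter one for the others, the same in all libraries. Loci without an Ensembl identifier (1.66 to 2.12% of counts) and 2 rows of annotation text in each myotube table, which name no gene, were left out.

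Genes whose FPKM averaged 1 or more over the 6 libraries (12808 Ensembl genes) entered the quasi-likelihood F-test of edgeR 4.0.16 in R 4.3.3, on TMM-scaled counts. The test was two-sided, p-values were adjusted by Benjamini-Hochberg across those genes, and the common biological coefficient of variation was 0.0975. Standard errors come from the F statistic. CPM uses TMM-scaled library sizes. Values are means ± SD with n = 3, and precision is limited by depth only for genes of few counts (at least 129 per library in the tested members). Alternatives used DESeq2 1.42.0, limma 3.58.1 on log2 FPKM with pseudocounts of 1 and 0.1, other scalings and filters, a replicate block and left-out libraries.

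The members, the 6 lists (118 entries, 82 matched by symbol) and the tests were chosen with earlier results of these data known. Named members are the 8 largest falls, the 4 largest rises (there were none), the 5 highest levels, the 3 smallest changes, genes with set roles, and the untested MRPL54. Of each other list, the largest called change in each direction and the preset genes with a row are named. TUFM, NRF1, PTCD3, MTERF4 and MALSU1 were also preset but matched to no row, so the counts leave them out. Other members with values and the neighbours were chosen after their values were seen, as was the comparison with genes within the family's range of length and level. Of the family's names, 17 were matched to no row and are not analysed here. All 61 symbols are in a RefSeq table of GRCg7b, used only for names. PAX7, COL1A1 and HBBA, listed as markers, were not matched.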

Additional observations from a re-analysis of the deposited data

How the results depend on the processing

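The number of genes called lower stayed between 49 and 57 of the 60 tested under every alternative of tool, scaling, pseudocount, filter, threshold and block (46 of 49 without overlapping genes), and between 54 and 59 with each library left out in turn. Over all 12808 tested genes, the number called lower ran from 3492 on the rescaled FPKM to 4636 with median-of-ratios scaling. It was 5001 of 20031 with no filter and 3595 of 9764 with the stricter filter. Of the 60 members, 47 were called lower in all 18 fits and 55 had a negative fold change in all of them. The same was not counted over all genes. No member was called higher except by quantile normalization, with 2, beside 4477 of all tested genes. The median log2 fold change of -0.58 became -0.52 with library totals, -0.49 and -0.51 on log2 FPKM with pseudocounts of 1 and 0.1, and -0.38 on the rescaled FPKM and by quantile normalization; with libraries left out it ran from -0.60 to -0.55. Signs turned to positive, on the rescaled FPKM, for MRPL15 (0.030), MRPS12 (0.077) and MRPL40 (0.10), and by quantile normalization for MRPL9 (0.0017), MRPL15 (0.018), MRPL44 (0.067), MRPS12 (0.17) and MRPL40 (0.27); the cause was not tested. The labels state no pairing of libraries by replicate number. Deviations from the group means correlated at -0.08, 0.17 and -0.26 for same-numbered libraries, and at -0.21 to 0.28 for the others. With 3 libraries per group these values cannot decide whether libraries were paired. With the number as a replicate block, 55 genes were lower and none higher, with a median of -0.57 (4337 lower and 4447 higher over all genes). Among the 61, MRPL54 alone lay under the filter, and the fit with no filter tested it and did not call it. MRPL20 was tested at 129 to 197 counts per library, with an SE of 0.17 in the count test.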

Other observations

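The 13 named messages of the mitochondrial genome, which this ribosome translates, gave 2 lower, 4 higher and 7 not called in edgeR's quasi-likelihood test, with a median log2 fold change of 0.07 (0 lower and 5 higher on the rescaled FPKM, 1 and 6 by quantile normalization). A single gene fell without myoblast replicate 3 or without myotube replicate 2. Those that fell with all libraries were MT-CO2 and COX3, and those that rose were MT-ND4, ND5, ND6 and MT-ATP8. ATP8 overlaps ATP6 in vertebrate mitochondrial genomes, so their reads may be shared, and ND6 is encoded on the strand opposite to the other messages. Without myotube replicate 1 the median was -0.03. Over all tested genes 35.7% were called lower and 36.7% higher in the count test. PPARGC1A, a coactivator known in mammals to drive mitochondrial biogenesis, lay under the filter, at 0.451, 0.437 and 0.252 CPM in myoblasts and 3.32, 2.64 and 2.54 CPM in myotubes. The myotube libraries were all above the myoblast libraries, from 7, 7 and 5 counts to 77, 61 and 56.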
